A study of Mus musculus with 32 samples.

Results

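CH12F3 is a mouse B lymphoma line that switches its antibody isotype from IgM to IgA in culture. The cells described here carried a knockout of Elof1, the gene of the elongation factor ELOF1, with or without an added ELOF1 construct. RNA was sequenced from 8 CH12F3 libraries at day 3 and day 7 of stimulation, out of 32 libraries in the whole series. The 4 libraries called Vector came from Elof1-KO cells that carried an empty vector (2 at day 3 and 2 at day 7). The 4 libraries called ELOF1 came from Elof1-KO cells that carried an ELOF1 construct, again 2 at each day. All 8 cultures therefore shared the Elof1 knockout, and all received α-CD40, IL4 and TGF-β. The ELOF1 cells are a rescue by a construct and not the unedited line, and the promoter of the construct, the species of its sequence and the number of clones were not stated in the labels. Libraries were chosen by their labels: replicate 1 and replicate 2 of each genotype at each day. Within a day, the Vector and ELOF1 libraries with the same replicate number were compared as a pair, which gave 4 pairs.

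ELOF1 is an elongation factor that travels with RNA polymerase II and also takes part in transcription-coupled repair, the repair that starts at a stalled polymerase. In B cells, the transcribed switch regions of the heavy chain locus are broken during class switching, and the breaks are joined so that a new constant gene lies behind the variable region. Before a switch, cytokines turn on a germline transcript of the target constant gene: IL-4 does this for Ighg1 and Ighe, and TGF-beta for Igha. The comparison asks how the transcriptome of such cells at the late days differs without ELOF1.

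Each library held 11202693 to 15550229 mouse counts, with a median of 289 to 399.5 counts per tested gene. Spiked fly RNA gave 2.60% to 3.09% of the mouse counts in Vector libraries and 2.48% to 2.88% in ELOF1 libraries. Mitochondrial ribosomal RNA was 0.288% to 0.420% of mouse counts in Vector libraries and 0.396% to 0.489% in ELOF1 libraries, and its part in the results was not tested. The cells were B cells by their markers, since all 8 B cell markers were detected and their summed level was 1342 to 1634 CPM (counts scaled to a common mouse total) in Vector libraries and 1197 to 1317 CPM in ELOF1 libraries. The 9 markers of T and NK cells summed to 1.86 to 3.77 CPM in Vector libraries and 2.37 to 4.04 CPM in ELOF1 libraries, and Ncr1 had no count in any library. Of 9 myeloid markers, S100a8 and S100a9 had no count in any library, and the sum of 59.1 to 228.3 CPM in Vector libraries and 61.7 to 170.1 CPM in ELOF1 libraries came mostly from Adgre1 and Csf1r. Adgre1 was one of the called rises, at 33.5, 98.1, 111 and 185 CPM in Vector libraries, against 28.9, 59.2, 93.6 and 129 CPM in ELOF1 libraries, all after TMM scaling, a correction of library totals for composition (day 3 replicates 1 and 2, then day 7 replicates 1 and 2; log2 fold change 0.44 ± 0.08, edgeR adjusted p = 0.00252), while Cd14 and Lyz2 stayed under 1 CPM in every library. In bulk RNA, fewer cells of a type and less RNA per cell cannot be told apart.

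Elof1 (chromosome 9, 22112989 to 22117148, minus strand, mm10) was the check of the labels. Levels are given from here on in CPM after TMM scaling, and each set of 4 values runs day 3 replicate 1, day 3 replicate 2, day 7 replicate 1, day 7 replicate 2. Elof1 stood at 1.52, 1.52, 0.948 and 3.24 CPM in Vector libraries, against 312, 137, 385 and 155 CPM in ELOF1 libraries. Every Vector library lay far below every ELOF1 library, at a log2 fold change of -6.91 ± 0.22 (SE, edgeR adjusted p = 8.05e-11), and the ELOF1 libraries numbered 1 held more Elof1 than those numbered 2 at both days. Fold changes are Vector over ELOF1 throughout, on a log2 scale with the SE of the fit, and a gene was called at a Benjamini-Hochberg adjusted p below 0.05 over all genes tested.

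Of 13218 genes tested, 1146 were called, which is 8.67%. In Vector cells 583 of them rose (4.41% of the genes tested) and 563 fell (4.26%), and the median fold change of all tested genes was 0.00. Most changes were small: 73 of the calls reached a 2-fold difference, 11 higher and 62 lower. The direction was the same in all 4 pairs for 567 of the rises and 541 of the falls, and for 30.4% of all tested genes. Vector and ELOF1 libraries did not overlap for 838 of all tested genes (6.34%), of which 440 were called. The calls rest on the pairing, since 8 genes were called without it, 3 higher and 5 lower. With the counts of days 3 and 7 summed within each genotype and replicate number, which leaves 2 pairs, 526 genes were called, 249 higher (1.78%) and 277 lower (1.98%), with 524 of them among the 1146. When libraries were scaled by their fly counts in place of TMM (fly scaling), the median of all genes moved to -0.16, and 3574 genes were called, 141 higher (1.07%) and 3433 lower (26%). Of the 1146 calls, 701 were kept. Medians and calls of gene lists are therefore given under both scalings. Calls in each list below are read against the shares of all genes. With TMM these are 4.41% higher and 4.26% lower, and with fly scaling 1.07% higher and 26% lower. A list's median with fly scaling is read against the -0.16 of all genes.

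The pairing shows in the libraries themselves. With the mean of each day removed, the first principal component held 51.2% of the variance and separated replicate 1 from replicate 2, while the second held 24.4% and separated Vector from ELOF1. The difference in level between replicates 1 and 2 was alike at day 3 and day 7, with a correlation of 0.776 over 11182 genes. What the replicate numbers stand for is not given in the labels, so the 2 days of one number may share a culture or a clone, and p-values measure only the spread between these libraries.

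**Figure D1:**
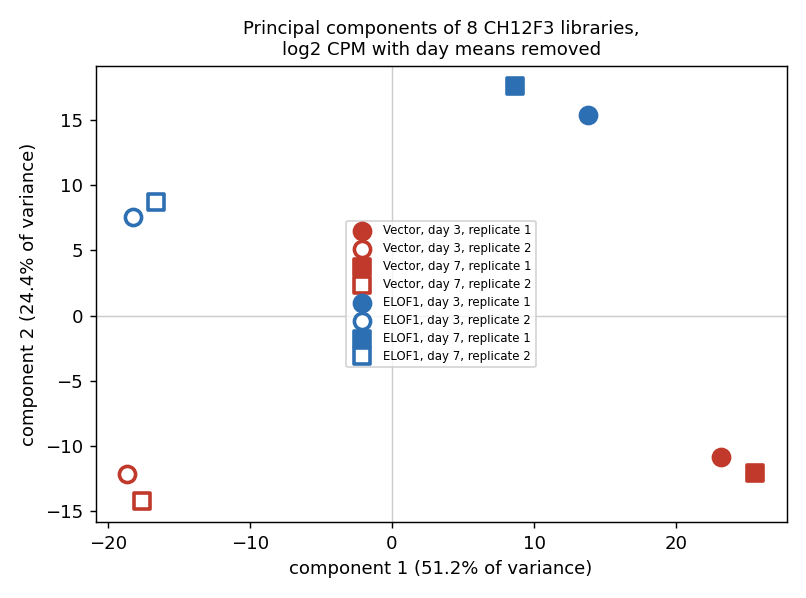
Principal components 1 and 2 of the 8 libraries (log2 CPM with day means removed), with Vector in red and ELOF1 in blue, circles for day 3, squares for day 7, filled symbols for replicate 1 and open symbols for replicate 2. Replicates 1 and 2 lie apart along component 1 (51.2% of the variance), and all 4 Vector libraries lie below all 4 ELOF1 libraries along component 2 (24.4%).

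Isotype genes led the rises among the genes named by rule. Vector cells held more RNA of Ighg3, Ighe and Ighg1 and less of Igha, the constant gene that CH12F3 cells switch to. These genes lie in one locus on chromosome 12, minus strand, in the order Ighm (113418558 to 113422730), Ighd, Ighg3 (113359575 to 113361232), Ighg1 (113325240 to 113330523), Ighg2b, Ighg2c, Ighe (113271174 to 113273248) and Igha (113254830 to 113260236). A count over a constant gene does not separate the germline transcript from the RNA of a switched or unswitched antibody chain.

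Igha was at 1492, 1780, 1647 and 1832 CPM in Vector libraries, against 2038, 2784, 3118 and 3134 CPM in ELOF1 libraries. All 4 Vector libraries lay below all 4 ELOF1 libraries, a log2 fold change of -0.70 ± 0.06 (adjusted p = 2.37e-05), or 1.62-fold lower. Ighm, the constant gene of the unswitched chain, was at 2575, 2643, 2256 and 1566 CPM in Vector libraries, against 2608, 1421, 1663 and 437 CPM in ELOF1 libraries. The groups overlapped, and the first pair did not follow the other 3: the log2 fold change was 0.78 ± 0.19 (adjusted p = 0.0189), and the call was lost without the pair numbered 2 of day 3 (adjusted p = 0.109), with robust dispersions (0.371) and in DESeq2 (0.260).

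Set against each other in 1 library, Igha made up 36.7%, 40.2%, 42.2% and 53.9% of the Igha and Ighm counts in Vector libraries, against 43.9%, 66.2%, 65.2% and 87.8% in ELOF1 libraries. The share was lower in Vector cells in all 4 pairs, and it differed between ELOF1 libraries by more than between Vector libraries. As a log2 ratio of Igha to Ighm the means were -0.397 ± 0.438 in Vector and 1.09 ± 1.32 in ELOF1 libraries (SD, n = 4 each). The difference was -1.49, with an exact 2-sided sign-flip p of 0.13, the smallest that 4 pairs allow. Counts here are not divided by gene length, so the shares compare libraries and not the amounts of Igha and Ighm RNA.

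Ighe, the constant gene of IgE, was at 11.3, 11.2, 10.4 and 9.14 CPM in Vector libraries, against 2.06, 4.14, 1.85 and 1.49 CPM in ELOF1 libraries. Its levels were close among the Vector libraries and did not overlap with ELOF1, and its log2 fold change of 2.17 ± 0.21 (adjusted p = 3.45e-05), or 4.49-fold, was among the few calls that also stood without the pairing. Ighg1, of IgG1, was at 10.7, 13.7, 7.33 and 6.61 CPM in Vector libraries, against 3.56, 3.45, 3.86 and 1.49 CPM in ELOF1 libraries. Ighg3, of IgG3, was at 13.3, 5.22, 24.6 and 5.83 CPM in Vector libraries, against 4.03, 1.52, 2.97 and 1.33 CPM in ELOF1 libraries. Neither gene's groups overlapped, and the log2 fold changes were 1.64 ± 0.20 for Ighg1 (adjusted p = 0.000181) and 2.21 ± 0.22 for Ighg3 (adjusted p = 4.13e-05), with Ighg3 higher in the pairs numbered 1 than in those numbered 2 in both genotypes. All 3 genes were scarce, at under 25 CPM in every library.

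Of 10 tested immunoglobulin constant genes, 5 rose (Ighd too, at 1.34 ± 0.27, adjusted p = 0.00780) and 3 fell, against 4.41% and 4.26% of all genes. The median was 0.77 (0.60 with fly scaling). The heavy chain genes Ighg2b and Ighg2c, with fold changes of 0.62 ± 0.23 and 0.75 ± 0.57, were not called. Both light chain genes in the list fell. Iglc2, a lambda light chain gene (chromosome 16, 19198401 to 19200351), was at 58.9, 69.8, 55.6 and 51.1 CPM in Vector libraries, against 108, 109, 106 and 107 CPM in ELOF1 libraries. The ELOF1 libraries were nearly equal and all Vector libraries lay below them, at -0.87 ± 0.07 (adjusted p = 1.11e-05). Igkc, the kappa gene, had a fold change of -0.30 ± 0.06 (adjusted p = 0.00451). Lambda constant genes resemble each other, so reads of Iglc2 may be split with its copies.

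**Figure D2:**
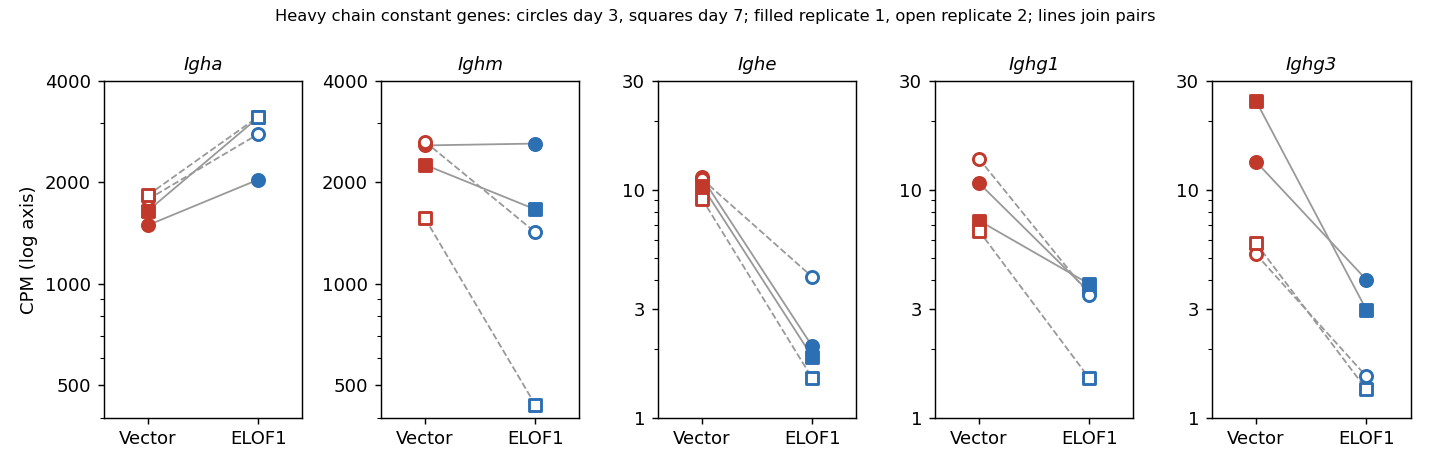
CPM (log axis) of 5 heavy chain constant genes in the 8 libraries, Vector on the left and ELOF1 on the right of each panel, circles for day 3, squares for day 7, filled symbols for replicate 1 and open ones for replicate 2, with lines that join the 4 pairs. Igha is lower in Vector in every pair, Ighe, Ighg1 and Ighg3 are higher in every pair, and Ighm ranges from 437 to 2608 CPM in ELOF1 libraries.

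Genes of the response to IL-4 beyond the constant genes rose too. IL-4 binds a receptor of which IL4RA is a subunit, and the receptor activates the transcription factor STAT6, which binds a short palindrome with a spacer. On the list for IL-4 and STAT6, 12 of 20 tested genes rose and none fell, against 4.41% of all genes that rose. Members of this and the other lists were chosen with earlier results of these data known, so such counts describe and do not test. The median was 0.23, and 17 of the 20 had positive fold changes. With fly scaling the median was 0.066, with 9 called higher and 1 lower, and with the days summed 9 were called, all higher. The called members were Ighe, Ighg1, Fcer2a, Il4ra, Stat6, Stat5a, Stat5b, Il4i1, Socs2, Cish, Ccl22 and Il2rg, so they included the receptor, its transcription factors and 2 feedback inhibitors of cytokine signalling.

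Il4ra, the receptor subunit, was at 95.3, 106, 119 and 129 CPM in Vector libraries, against 74.5, 79.95, 80.5 and 87.9 CPM in ELOF1 libraries. The groups did not overlap, at 0.47 ± 0.06 (adjusted p = 0.000181). Fcer2a, which encodes CD23, the low-affinity IgE receptor, was at 67.4, 124, 36.5 and 106 CPM in Vector libraries, against 28.9, 60.6, 26.8 and 63.8 CPM in ELOF1 libraries. Replicate 2 held more than replicate 1 in both genotypes, so the groups overlapped, but each pair was higher in Vector, at 0.87 ± 0.09 (adjusted p = 6.59e-05). Cish, a STAT5 target and feedback inhibitor, had 15.1, 64.98, 12.8 and 37.0 CPM in Vector libraries, against 10.9, 31.7, 11.8 and 29.9 CPM in ELOF1 libraries, at 0.53 ± 0.12 (adjusted p = 0.0167).

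The promoter window of Fcer2a is shown because it is the called IL-4 gene whose window holds TTC and GAA with 4 bases between them, the spacing that STAT6 binds. It is 1 of 3 windows that RefSeq gives for this gene (GRCm38.p6, chr8:3690812-3691111, minus strand, 250 bases before to 50 after the start), and the capitals mark the match, which begins at -168 from the start.
Fcer2a: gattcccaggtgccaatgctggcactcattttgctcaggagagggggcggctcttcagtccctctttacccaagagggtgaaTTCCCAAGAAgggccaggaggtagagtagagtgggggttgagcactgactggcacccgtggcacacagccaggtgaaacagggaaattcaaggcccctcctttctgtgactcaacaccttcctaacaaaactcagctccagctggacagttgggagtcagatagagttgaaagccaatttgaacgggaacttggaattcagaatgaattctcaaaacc
Of 19 genes of the list with a window, 2 held these letters on either strand, Fcer2a and Ccl17, against 6.51% of 9212 tested genes. A match in letters is a description and not evidence of a bound site.

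Of 31 tested genes of B cell activation, 11 rose (against 4.41% of all genes), 20 were not called and none fell. Their median was 0.20. The calls depended on the scaling: with fly scaling the median was 0.038. There 4 were called higher and 5 lower, against 1.07% and 26% of all genes. With the days summed, 8 were called higher. Ebi3, a subunit of the cytokines IL-27 and IL-35, was at 103, 187, 83.2 and 145 CPM in Vector libraries, against 64.8, 117, 67.3 and 100.4 CPM in ELOF1 libraries, at 0.55 ± 0.06 (adjusted p = 0.000137). Gpr183, the oxysterol receptor that guides activated B cells, was at 64.3, 61.7, 63.6 and 71.4 CPM in Vector libraries, against 35.5, 41.8, 48.3 and 55.1 CPM in ELOF1 libraries. The Gpr183 groups did not overlap (0.54 ± 0.08, adjusted p = 0.000670). Traf1, an adaptor of TNF receptors and a target of NF-kB, was called at 0.47 ± 0.07, and Gpr55, a lysophospholipid receptor, at 0.84 ± 0.14. The other 7 were the surface molecules Cd40, Cd80, Cd83, Cd86, Cd274 and Icam1, which present or receive signals from T cells, and the survival gene Bcl2l1.

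CD40 signals through the non-canonical NF-kB pathway, in which the kinase MAP3K14 activates CHUK, and CHUK in turn triggers the processing of the NFKB2 precursor. Of 20 NF-kB genes, 4 rose, against 4.41% of all genes, and none fell. The rises were Nfkb2 (0.34 ± 0.05, adjusted p = 0.000857), Map3k14 (0.34 ± 0.09), Chuk (0.21 ± 0.06) and the canonical subunit Rel (0.21 ± 0.05). Nfkb2 was at 342, 315, 347 and 313 CPM in Vector libraries, against 255, 256, 259 and 267 CPM in ELOF1 libraries, without overlap. The list's median of 0.09 changed sign to -0.070 with fly scaling, where 1 was called higher and 2 lower, and the calls of Map3k14, Chuk and Rel were lost there. Leaving out 1 pair also ended these calls, with the highest adjusted p for Map3k14 at 0.114 without day 7 replicate 2, and for Chuk and Rel at 0.173 and 0.161 without day 3 replicate 1. Of 22 immediate-early genes, which respond to signals within minutes, 7 rose and none fell (median 0.20), among them Junb (0.28 ± 0.05), Ier2 (0.30 ± 0.06) and Zfp36 (0.39 ± 0.08), and 4 of them code for the MAP kinase phosphatases Dusp1, Dusp2, Dusp4 and Dusp5. With fly scaling the median of the immediate-early genes was 0.039, and none was called higher and 3 lower. With the days summed, 4 were called higher. Of all genes, 1.07% were called higher and 26% lower with fly scaling. The calls of Zfp36 and Dusp4 were lost without day 3 replicate 2 (adjusted p = 0.0837 and 0.0763).

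TGF-beta response genes moved both ways. Of the 18 tested, 2 rose and 2 fell, against 4.41% and 4.26% of all genes, with a median of 0.06. With fly scaling the median was -0.10, above the -0.16 of all genes. None was then called higher and 5 lower, a share close to the 26% of all genes called lower. Smad7, the feedback inhibitor (0.29 ± 0.06, adjusted p = 0.00591), and the corepressor Tgif1 (0.28 ± 0.05, adjusted p = 0.00528) rose. Ski, a repressor of SMAD proteins (-0.36 ± 0.08, adjusted p = 0.0118), and Smurf1, a ubiquitin ligase of the pathway (-0.30 ± 0.08, adjusted p = 0.0315), fell. Smad7 was at 127, 155, 132 and 144 CPM in Vector libraries, against 107, 131, 95.9 and 123 CPM in ELOF1 libraries, higher in each pair with overlap between the groups. The calls of Ski and Smurf1 were lost with the days summed (adjusted p = 0.0560 and 0.0892) and without day 3 replicate 2 (0.0657 and 0.156).

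Presentation by MHC class II was the list in which every tested member had a positive fold change with TMM scaling (8 of 11 with fly scaling). Class II molecules display peptides to T cells: H2-Aa and H2-Ab1 form one alpha-beta pair, H2-Eb1 is a beta chain, CD74 is the invariant chain, and the DM and DO proteins load the peptide or restrain the loading. Of 11 genes, 8 rose, against 4.41% of all genes, and none fell. The median was 0.29 (0.13 with fly scaling, where 5 were called higher, against 1.07% of all genes, and none lower). Ciita, the master activator of these genes, was not called at 0.15 ± 0.05 (adjusted p = 0.0618). H2-Eb1 was at 1046, 1146, 1107 and 974 CPM in Vector libraries, against 780.1, 858, 802 and 787 CPM in ELOF1 libraries, at 0.40 ± 0.05 (adjusted p = 0.000137). H2-Aa was at 1545, 1424, 1419 and 1177 CPM in Vector libraries, against 1158, 1152, 1061 and 1035 CPM in ELOF1 libraries, at 0.33 ± 0.05 (adjusted p = 0.00115). The groups overlapped in neither gene. Cd74 was at 5399, 6002, 5156 and 5189 CPM in Vector libraries, against 4235, 4775, 4333 and 4456 CPM in ELOF1 libraries, also without overlap (0.29 ± 0.05, adjusted p = 0.00147).

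Promoters of class II genes share a conserved module that ends in a Y box, a reversed CCAAT box bound by NF-Y. The windows of H2-Aa (GRCm38.p6, chr17:34287774-34288073, minus strand) and H2-Eb1 (chr17:34305617-34305916, plus strand) are shown because these genes rose together, and the capitals mark the letters CTGATTGG, which contain CCAAT on the other strand.
H2-Aa: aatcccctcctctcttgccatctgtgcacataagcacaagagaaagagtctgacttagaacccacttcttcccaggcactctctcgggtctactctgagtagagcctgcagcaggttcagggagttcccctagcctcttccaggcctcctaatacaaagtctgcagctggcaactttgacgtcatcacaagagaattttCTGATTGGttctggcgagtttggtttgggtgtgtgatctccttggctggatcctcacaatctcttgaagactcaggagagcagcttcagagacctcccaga
H2-Eb1: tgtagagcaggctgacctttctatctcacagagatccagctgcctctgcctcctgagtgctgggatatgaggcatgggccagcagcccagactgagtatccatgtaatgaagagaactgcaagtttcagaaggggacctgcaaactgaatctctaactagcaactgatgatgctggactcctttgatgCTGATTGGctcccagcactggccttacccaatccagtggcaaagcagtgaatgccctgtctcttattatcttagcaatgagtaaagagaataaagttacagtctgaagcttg
The match starts at -51 in H2-Aa and at -62 in H2-Eb1. On either strand, CTGATTGG was in a window of 3 of 8 class II genes and of 7.02% of 9212 tested genes. The shorter CCAAT was in 7 of 8 and in 43.1%. CTGATTGG was not particular to class II, as 6 of 18 cholesterol synthesis genes held it too.

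Of 8 B cell markers, 5 rose, against 4.41% of all genes, among them Cd79a, Cd79b, Cd22 and Cd37, and none fell. The median was 0.24 (0.081 with fly scaling, where 1 was higher and 1 lower). With the days summed 3 were called, and Cd37 was not (adjusted p = 0.0548). Without day 3 replicate 2 the calls of Cd79a, Cd79b and Cd37 were lost (adjusted p = 0.0576, 0.0937 and 0.0739), and that of Cd37 also without day 3 replicate 1 (0.0623). Of 21 genes of B cell receptor signalling, 5 rose and 2 fell, against 4.41% and 4.26% of all genes, and the median was 0.002. With fly scaling the median was -0.16, near that of all genes. There none was called higher and 8 lower, against 26% of all genes. Malt1, a scaffold protease on the way to NF-kB, rose (0.26 ± 0.05), and the kinase gene Prkcb fell (-0.23 ± 0.05, lost with the days summed and without day 3 replicate 1 at adjusted p = 0.0703 and 0.0797).

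Prdm1 encodes Blimp-1, the repressor that turns an activated B cell into a plasma cell. It was at 5.98, 2.17, 6.72 and 1.75 CPM in Vector libraries, against 17.7, 7.32, 20.8 and 5.17 CPM in ELOF1 libraries. Each pair was lower in Vector by a similar factor, while replicate 1 was above replicate 2 in both genotypes, at -1.62 ± 0.14 (adjusted p = 2.32e-05), or 3.08-fold lower. Jchain, which joins IgA and IgM into polymers, was at 112, 291, 62.2 and 179 CPM in Vector libraries, against 198, 347, 199 and 267 CPM in ELOF1 libraries (-0.80 ± 0.14, adjusted p = 0.00365), a call that was lost with robust dispersions and in DESeq2 (adjusted p = 0.248 and 0.0742). Of 9 tested plasma cell genes these 2 fell, while Slamf7 (0.58 ± 0.10), the BAFF and APRIL receptor Tnfrsf13b (0.29 ± 0.05) and the secretory chaperone gene Mzb1 rose, and the median of 0.14 changed sign to -0.022 with fly scaling, where 1 was called higher and 3 lower. Of all genes, 4.41% rose and 4.26% fell, and with fly scaling 1.07% were called higher and 26% lower. The plasma cell markers Sdc1, Tnfrsf17 and Derl3 were too scarce to be tested.

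Of 25 tested genes of cholesterol synthesis, 8 rose, against 4.41% of all genes, and none fell. In this list 23 fold changes were positive, around a median of 0.18. With fly scaling the median was 0.015, and none was called higher and 2 lower, against 1.07% and 26% of all genes. Among the 8 rises were Hmgcs1, Idi1, Fdft1, Lss, Cyp51, Msmo1 and Hsd17b7, which act at early and late steps of the pathway. Cyp51, the lanosterol demethylase, was at 282, 228.7, 273 and 306 CPM in Vector libraries, against 179.7, 202, 202 and 268 CPM in ELOF1 libraries, with overlap (0.36 ± 0.07, adjusted p = 0.00498). Hmgcs1, the synthase before HMG-CoA reductase, was at 223.3, 198, 211.3 and 286 CPM in Vector libraries, against 140.2, 184, 171 and 249.7 CPM in ELOF1 libraries. It was higher in each pair, most of all in the first (0.31 ± 0.07, adjusted p = 0.0162). Without day 3 replicate 1 the calls of Hmgcs1 and Idi1 were lost (adjusted p = 0.116 and 0.112).

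The window of Hmgcs1 is printed as the cholesterol gene that holds TCACNCCAC, a form of the sterol element bound by SREBP (GRCm38.p6, chr13:119690101-119690400, plus strand, match in capitals from -137).
Hmgcs1: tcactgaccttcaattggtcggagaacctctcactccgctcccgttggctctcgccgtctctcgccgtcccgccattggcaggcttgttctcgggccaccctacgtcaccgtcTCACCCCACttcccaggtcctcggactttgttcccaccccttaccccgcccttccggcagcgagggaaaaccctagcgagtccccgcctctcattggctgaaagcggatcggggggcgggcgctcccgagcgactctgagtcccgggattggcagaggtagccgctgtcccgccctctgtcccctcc
Hmgcs1 was the only 1 of 18 cholesterol genes with these letters in a window, on either strand, against 1.51% of 9212 tested genes. CCAAT was in 17 of the 18, against 43.1%.

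Of 23 glycolysis genes, 5 rose and 2 fell, against 4.41% and 4.26% of all genes, with a median of 0.046. With fly scaling the median was -0.12 (-0.16 for all genes). There 3 were called higher and 6 lower, against 1.07% and 26% of all genes. Eno2, an enolase, was at 103, 96.6, 112 and 87.9 CPM in Vector libraries, against 74.5, 72.5, 53.9 and 59.8 CPM in ELOF1 libraries, without overlap (0.62 ± 0.08, adjusted p = 0.000506). Gapdh (0.29 ± 0.05), Pgam1 (0.33 ± 0.05), Pkm (0.23 ± 0.04, lost without day 3 replicate 1 at adjusted p = 0.0508) and Pgk1 rose too, and Pdk1, which restrains the entry of pyruvate into mitochondria, fell together with the lactate exporter Slc16a3. With the days summed 3 glycolysis genes were called higher and none lower, so both falls were lost there. Gapdh has many near-identical pseudogenes, so its counts are uncertain. Of 14 hypoxia-linked genes, 6 rose and 1 fell (median 0.18): Vegfa, the vascular growth factor (0.31 ± 0.06), the histone demethylase Kdm3a (0.36 ± 0.06), the prolyl hydroxylase P4ha1 (0.31 ± 0.06), the mTORC1 inhibitor Ddit4 (0.40 ± 0.06), Bnip3 and Bnip3l, against Pdk1. With fly scaling the median of the hypoxia-linked genes was 0.019 and 2 were called in each direction; with the days summed, 5 were called higher and none lower.

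Of 21 tested genes of amino acid stress, which ATF4 drives, 9 rose and 1 fell, against 4.41% and 4.26% of all genes. Their median was 0.16. With fly scaling the median was 0.0024, with 3 called higher and 4 lower, and with the days summed 3 were called higher and 1 lower. Atf5, a transcription factor of this response, was at 298, 342, 194 and 159.5 CPM in Vector libraries, against 221.9, 247, 115 and 134 CPM in ELOF1 libraries. Its level was lower at day 7 in both genotypes, and each pair was higher in Vector (0.47 ± 0.07, adjusted p = 0.000612). Sesn2 (0.34 ± 0.05), which inhibits mTORC1, and Slc3a2 (0.25 ± 0.05), the shared chain of amino acid transporters, rose too, and Nupr1 was the member that fell. The Slc3a2 call was lost with the days summed (adjusted p = 0.0585) and with fly scaling (0.228). Of 38 cytosolic ribosomal protein genes 8 rose, against 4.41% of all genes, and none fell. Their median of 0.11 changed sign to -0.056 with fly scaling (-0.16 for all genes). There none was called higher and 6 lower, against 26% of all genes. With the days summed, 1 ribosomal protein gene was called. These genes have many pseudogene copies, so their counts are uncertain.

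Uqcc2, which helps to assemble complex III of the respiratory chain (chromosome 17, 27122663 to 27133916, minus strand), was at 20.96, 19.1, 20.1 and 16.98 CPM in Vector libraries, against 39.5, 32.6, 37.5 and 40.02 CPM in ELOF1 libraries. All Vector libraries lay well below all ELOF1 libraries (-0.96 ± 0.09, adjusted p = 3.29e-05). Among 16 genes of complex III and its assembly Uqcc2 was the only fall, and the subunit gene Uqcrq was the only rise (0.30 ± 0.05). Counts in this and the next 2 lists are small beside the 4.26% of all genes that fell and the 4.41% that rose, so they describe single genes. Of the 30 nuclear genes of the other complexes Atp5b rose (0.22 ± 0.05, lost without day 3 replicate 1 at adjusted p = 0.0544), and of 13 genes of the mitochondrial genome none was called. The medians of these 3 lists were 0.04, 0.03 and 0.05. With fly scaling they were -0.12, -0.13 and -0.11, and 3, 11 and 2 genes were called lower and none higher. Of all genes 26% were called lower with fly scaling, and their median was -0.16.

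**Figure D3:**
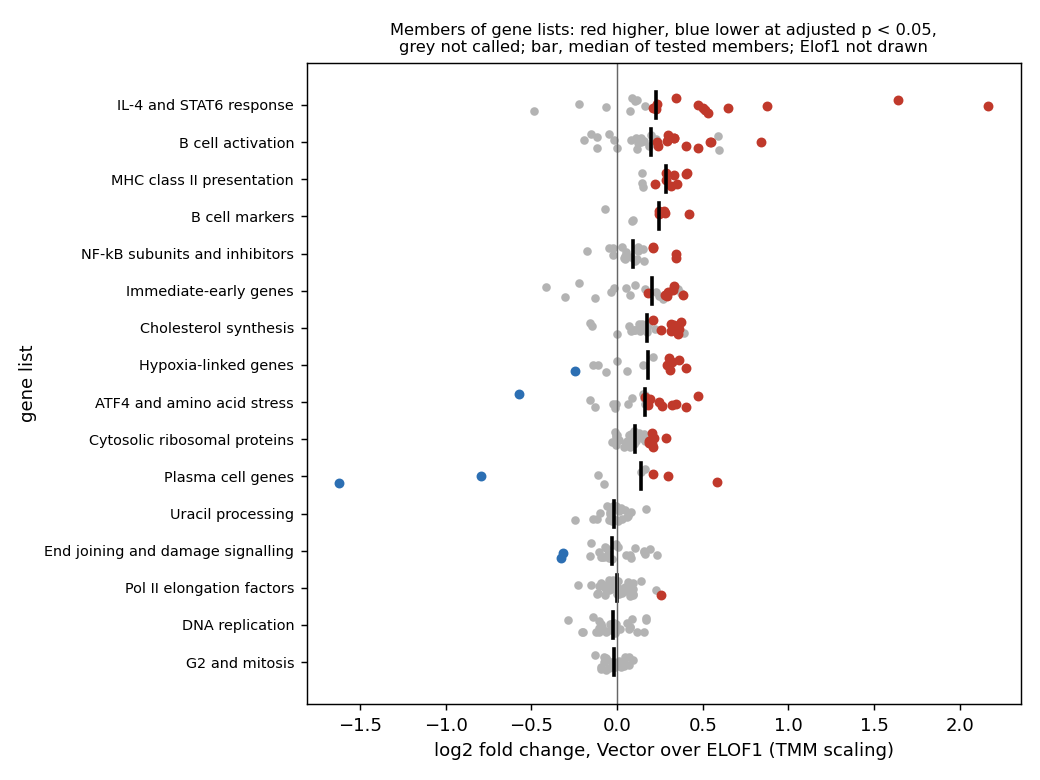
Log2 fold change of each tested member of 16 gene lists (points; red called higher, blue called lower, grey not called) with the list's median (black bar), Vector over ELOF1 with TMM scaling. IL-4, activation and class II genes lie mostly to the right, while the uracil processing, end joining, replication and mitosis lists lie around 0. With fly scaling all medians moved down, as did that of all genes (to -0.16). Those of the NF-kB, ribosomal, plasma cell and polymerase elongation lists changed sign.

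Calls among genes of the switching machinery are read against the 8.67% of all genes called. Ung, the glycosylase that removes uracil from DNA (-0.03 ± 0.06), Trp53bp1, a reader of damaged chromatin in end joining (0.08 ± 0.05), and Supt5, a polymerase II elongation factor (0.01 ± 0.05), were not called. The list of uracil processing had no call in 25 genes, whose fold changes ran from -0.24 to 0.17 around a median of -0.02. With fly scaling the median was -0.18, and 12 of the 25 were called lower, against 26% of all genes, and none higher. In simulated counts of this design, the fit recovered 59.7% of genes changed by 0.32 on the log2 scale, 80.6% of genes changed 1.5-fold and 95.5% of those changed 2-fold, so changes of the size seen in this list can have been missed. The simulated fit also made 14 false calls. Changes were placed only in genes with a mean log2 CPM above 1, so recovery in scarcer genes was not tested.

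Among 25 genes of end joining and damage signalling, 2 fell and none rose, a share close to that of all genes. The median was -0.03, and -0.19 with fly scaling (-0.16 for all genes). There 10 were called lower, against 26% of all genes, and none higher. Xrcc6, of the Ku dimer that holds broken ends, was at 33.2, 50.2, 36.1 and 56.9 CPM in Vector libraries, against 38.6, 58.8, 51.2 and 70.6 CPM in ELOF1 libraries. Each of its pairs was lower in Vector (-0.31 ± 0.07, adjusted p = 0.0102), and the other fall was Shld2, of the shieldin complex that protects ends from resection (-0.33 ± 0.09, adjusted p = 0.0281). The Shld2 call was lost with the days summed (adjusted p = 0.0887), in DESeq2 (0.0985) and without day 3 replicate 1 (0.122). Of 25 genes of transcription-coupled repair, the pathway ELOF1 belongs to, 3 fell and 1 rose, against 4.26% and 4.41% of all genes. The median was -0.04, and -0.21 with fly scaling, where 12 were called lower, against 26% of all genes, and none higher. Besides Elof1, the falls were Gtf2h1, a subunit of TFIIH (-0.27 ± 0.05, adjusted p = 0.00508), and Rbx1, of cullin ubiquitin ligases (-0.31 ± 0.07). Gtf2h1 was at 136, 129, 126 and 118 CPM in Vector libraries, against 154, 159, 153 and 147 CPM in ELOF1 libraries, without overlap. Xab2 rose (0.22 ± 0.06), though not with the days summed (adjusted p = 0.101) or without day 3 replicate 1 (0.170). The call of Rbx1 was lost with the days summed (adjusted p = 0.0523) and without day 7 replicate 1 or 2 (0.0743 and 0.0532).

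Of 40 polymerase II elongation factors, Eaf1, a partner of the ELL factors, rose (0.26 ± 0.05, adjusted p = 0.00533), and Elof1 was the only fall, while none of 13 polymerase II subunits was called. The medians of these lists were 0.00 and 0.06, and with fly scaling -0.16 and -0.11, where 13 elongation factors and 2 subunits were called lower and none higher. No gene was called among 29 of DNA replication or 25 of mitosis, whose medians were -0.024 and -0.020. With fly scaling these medians were -0.19 and -0.18, and 16 replication and 12 mitosis genes were called lower and none higher, against 26% of all genes called lower. Of 23 loci known as off-targets of the switching machinery, 6 rose, against 4.41% of all genes, and none fell. Besides Gadd45b and Pim1 these were Il4ra, Cd83, Cd79a and Cd79b, which were also counted in lists above. The median of 0.087 changed sign to -0.075 with fly scaling. There 3 were called higher and 4 lower, against 1.07% and 26% of all genes. Gadd45b, a stress-response gene, was the clearest at 61.6, 85.9, 57.7 and 62.5 CPM in Vector libraries, against 41.2, 56.1, 35.8 and 45.9 CPM in ELOF1 libraries, without overlap (0.58 ± 0.06, adjusted p = 7.88e-05). Pim1, a survival kinase, was at 501, 568, 442 and 448 CPM in Vector libraries, against 385, 459, 324 and 366 CPM in ELOF1 libraries (0.36 ± 0.05, adjusted p = 0.000418).

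Calls in the remaining lists are set against the 8.67% of all genes, or with fly scaling against 1.07% higher and 26% lower. Of 20 p53 targets, Sesn2 and Zmat3 rose and Trp53inp1 fell, and of 19 interferon-stimulated genes Bst2 rose and Ifit2 fell. The Ifit2 call was lost without day 3 replicate 1 (edgeR adjusted p = 0.0911). The interferon list's median was -0.50 in the pairs numbered 1 and 0.064 in those numbered 2. Of 14 genes of the BCL2 family 4 were called: the survival genes Bcl2l1 (0.33 ± 0.06) and Bcl2 (0.20 ± 0.05) and the death gene Bcl2l11 (0.31 ± 0.05) rose, and Bcl2a1b, which has near-identical copies, fell (-0.18 ± 0.05). Herpud1, Calr and Pdia6 rose among 21 genes of folding in the endoplasmic reticulum, Gpr183, Itgal and Itga4 among 12 migration receptors, and Lars was the only call, a fall, in 20 aminoacyl-tRNA synthetases. The calls of Lars, Pdia6, Calr, Herpud1, Bcl2, Bcl2a1b, Trp53inp1, Itgal and Itga4 were lost with the days summed. The medians of these 6 lists lay between -0.08 and 0.13. With fly scaling they lay between -0.24 and -0.04, and the called genes were 1 higher and 6 lower for p53 targets, 4 lower for interferon genes, 6 lower for the BCL2 family, 4 lower for folding, 1 higher and 2 lower for migration and 7 lower for the synthetases.

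Outside the lists, the largest rises after the isotype genes were led by Creb3l4, a membrane-anchored factor of the CREB family, at 4.01, 5.14, 2.76 and 3.63 CPM in Vector libraries, against 1.19, 1.73, 1.04 and 1.49 CPM in ELOF1 libraries. The groups did not overlap (1.50 ± 0.25, adjusted p = 0.00244). Cdk5r1, an activator of the kinase CDK5, was at 59.8, 50.3, 46.5 and 47.8 CPM in Vector libraries, against 30.6, 29.6, 20.98 and 28.0 CPM in ELOF1 libraries. Its rise was even across pairs and was also called without the pairing (0.91 ± 0.08, adjusted p = 2.24e-05).

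Ccr4, the receptor for the chemokines CCL17 and CCL22, was at 22.8, 52.5, 23.6 and 42.5 CPM in Vector libraries, against 10.1, 30.9, 9.08 and 27.5 CPM in ELOF1 libraries (0.93 ± 0.11, adjusted p = 0.000165), so its pairs moved alike although the groups overlapped. Hpgds, a prostaglandin D synthase, was at 39.3, 40.7, 32.3 and 32.1 CPM in Vector libraries, against 16.5, 25.3, 14.9 and 20.3 CPM in ELOF1 libraries, without overlap (0.91 ± 0.10, adjusted p = 0.000116). Evl, an actin regulator (0.89 ± 0.14), Arhgap22, a GTPase-activating protein (1.04 ± 0.23), and Ache, acetylcholinesterase (0.82 ± 0.17), complete the 12 largest rises named by rule. Of these, the Ache call was lost without day 3 replicate 2 (adjusted p = 0.0999).

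Falls of 2-fold or more outnumbered such rises, at 62 against 11, and most of those named were in scarce genes. Serpinf1, a secreted serpin, was at 2.32, 10.4, 3.96 and 8.36 CPM in Vector libraries, against 27.7, 30.3, 51.1 and 24.8 CPM in ELOF1 libraries. The groups did not overlap and the fall was deeper in the pairs numbered 1 (-2.38 ± 0.27, adjusted p = 0.000122, and 0.113 with robust dispersions). Pappa2, a protease of IGF-binding proteins, was at 1.34, 29.9, 4.31 and 49.7 CPM in Vector libraries, against 22.7, 61.9, 49.8 and 95.8 CPM in ELOF1 libraries. It fell with a log2 fold change of -1.73 ± 0.30 (adjusted p = 0.00279, and 0.247 with robust dispersions). Here replicates 1 and 2 differed as much as the genotypes did, and the groups overlapped.

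Serinc5, a membrane protein that limits the infectivity of retroviruses, was at 1.52, 2.10, 2.50 and 2.01 CPM in Vector libraries, against 9.41, 5.39, 17.6 and 4.46 CPM in ELOF1 libraries (-2.01 ± 0.26, adjusted p = 0.000303). Lmo7, a LIM domain protein, was at 1.96, 1.01, 0.862 and 0.972 CPM in Vector libraries, against 4.66, 4.42, 6.91 and 3.99 CPM in ELOF1 libraries (-2.05 ± 0.29, adjusted p = 0.000571). Both were lower in every Vector library than in any ELOF1 library. Wnt10a, a WNT ligand (-1.84 ± 0.25), Gpr161, a ciliary receptor that restrains Hedgehog signalling (-1.74 ± 0.30), Cxxc5, a zinc finger protein (-1.51 ± 0.29), Cask, a scaffold protein (-1.49 ± 0.26), the cadherin Cdh17 (-1.46 ± 0.34) and Cyp11a1, the first enzyme of steroid hormone synthesis (-1.39 ± 0.23), were the others after Elof1 and Prdm1.

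**Figure D4:**
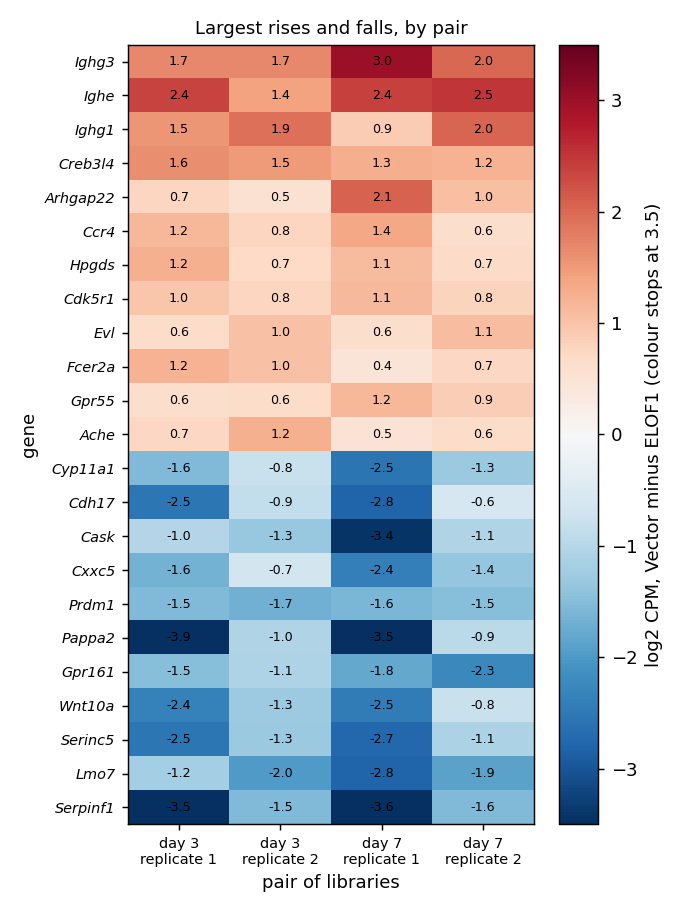
Log2 CPM in Vector minus ELOF1 in each of the 4 pairs (columns) for the 12 largest rises and, below them, 11 of the 12 largest falls (rows; Elof1, the deepest, is not drawn), with the difference written in each cell and colours that stop at 3.5. All rows keep 1 direction in the 4 pairs, as the rule for these genes asks, and Pappa2, Serpinf1 and Cdh17 are lower by more in the pairs numbered 1.

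Differences between pairs of different number were tested on their own. The genotype effect differed between replicate numbers 2 and 1 for 82 of 13218 genes by edgeR (0.62%), 59 of them with a higher value in number 2. Pappa2 had a log2 fold change of -3.70 in the pairs numbered 1 and -0.995 in those numbered 2, and Elof1 one of -8.14 and -5.92. The Ighm effect was 0.211 in number 1 and 1.36 in number 2. Of the 1146 calls, 1143 had the same direction in the pairs of each number alone, and 708 were called in number 1 and 513 in number 2. These pairs are part of the data that made the calls, so this agreement in direction was largely fixed in advance.

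No gene passed the test for a change of the effect between the late days. The difference between the days was called for no gene (0%), with 367 at an unadjusted p under 0.05, and for 1 gene by DESeq2. The smallest p-values belonged to mt-Rnr1, a mitochondrial ribosomal RNA (-0.81 at day 3 and 0.19 at day 7, adjusted p = 0.65 in edgeR), and Trp73, the p53 relative (0.17 and 0.79), followed by Ddt, Dab2ip and Rbm4. The median of the IL-4 list was 0.36 at day 3 and 0.20 at day 7, and that of class II 0.34 and 0.24. The median for B cell activation was 0.23 at day 3 and 0.19 at day 7. By single days, 484 genes were called at day 3 and 154 at day 7.

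The 8 libraries of day 1.5, with 4 of each genotype, were not used in the late comparison and give the same contrast in other samples. Their labels name the same Elof1-KO cells with the vector or the ELOF1 construct. Loss of ELOF1 and any other lasting difference between these cells therefore cannot be told apart by the agreement. In a fit of the day 1.5 libraries alone, 993 of 12706 genes were called (7.82%). Of 1136 late calls that were also tested at day 1.5, 1110 had the same direction there (97.7%), against 72.2% of all 12529 genes tested in both. At day 1.5, 523 were called in the same direction, which is 46.0% of the late calls and 52.7% of the day 1.5 calls, and 0 were called in the opposite one. Ighm was among the exceptions in direction, at -0.33 ± 0.14 at day 1.5 (edgeR adjusted p = 0.196) against 0.78 late. In day 1.5 replicates 1 and 2 alone it was at -0.695. Ighd was at 0.04 at day 1.5 (edgeR adjusted p = 0.948) against 1.34 late. Over the late calls the fold changes correlated at r = 0.899 across genes, which are not independent replicates, and at 0.886 without Elof1. Day 1.5 replicates 1 and 2 came from an earlier run of library numbers, with 9.63% of genes called in their own fit. They gave the same direction for 1035 of the 1136 (91.1%, r = 0.811), against 67.3% of all 12497 genes. There 442 late calls were called the same way and 7 the opposite way. Replicates 3 and 4 had library numbers directly before those of the late libraries. They gave the same direction for 1107 of 1140 (97.1%, r = 0.902), against 69.1% of all 12750 genes. There 494 were called the same way and 0 the opposite way. Whether nearness in library number added to the agreement was not tested.

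**Figure D5:**
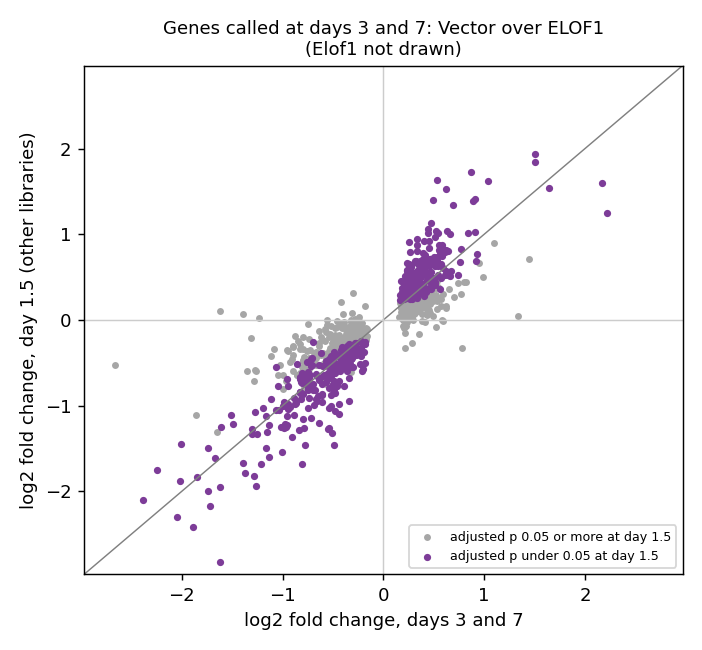
Log2 fold change (Vector over ELOF1) of the genes called at days 3 and 7, on the x axis, against that in the 8 day 1.5 libraries, on the y axis, with a line of equality and purple for genes also called at day 1.5 (Elof1 is not drawn). Most points lie in the lower left and upper right quadrants, as 1110 of 1136 genes had the same direction.

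The change of the effect between day 1.5 and the late days was tested too. No gene was called by edgeR over 16 libraries and 14201 genes (0%, 628 at an unadjusted p under 0.05), against 3 by DESeq2. The 5 smallest p-values were those of Fcer2a (0.87 late and 1.73 at day 1.5), Cish (0.53 and 1.63), Igha (-0.70 and -0.25), Shisa8 (-0.07 and 0.86) and Rab27a (0.04 and 0.58), with adjusted p between 0.276 and 0.459. Igha was thus lower by more at the late days in the values, and Fcer2a and Cish higher by less, without a call for the difference.

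The amount of RNA per cell and gene length were looked at with 1 value per library. Per the labels, the amount of fly RNA spiked in was set by cell number. More fly counts per mouse count mean less mouse RNA per cell only if cells and spiked RNA were measured exactly, which was not tested. Fly over mouse counts, as a log2 ratio, stood at -5.02, -5.12, -5.15 and -5.27 in Vector libraries, against -5.12, -5.30, -5.31 and -5.34 in ELOF1 libraries. It was higher in Vector in all 4 pairs, by 0.129 on average, at the smallest exact sign-flip p that 4 pairs allow (p = 0.13).

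Genes that span 100 kb or more were compared with those under 10 kb, since long genes need the longest travel of the polymerase. The median log2 CPM of the 1230 long genes minus that of the 4526 short ones was 1.87, 1.97, 1.77 and 2.02 in Vector libraries, against 1.94, 2.07, 2.03 and 2.07 in ELOF1 libraries. It was lower in Vector in all 4 pairs, by a mean of -0.119, with overlap between the groups (exact sign-flip p = 0.13). With limits of 50 kb and 20 kb the difference was -0.041 (exact sign-flip p = 0.750). Vector was then lower in the pairs of replicate 1 but not in those of replicate 2. The values of replicate 2 were 1.484 in Vector against 1.482 in ELOF1 at day 3, and 1.503 against 1.439 at day 7.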

How the data were processed

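Total RNA was depleted of ribosomal RNA and made into strand-specific libraries, per the labels' protocols. The authors deposited raw counts of reads for each gene. The submitters' processing notes name Bowtie2 and featureCounts, with mm10 and dm6 as builds. The sources used here give no versions, gene release, strand setting or treatment of multiply mapped reads, so overlapping, antisense and near-identical genes are uncertain. Of 43345 mouse genes 42461 had a symbol, and the 884 without one held 0.375% to 0.403% of mouse counts. The 17509 fly genes entered only the fly scaling and the ratio of fly to mouse counts.

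Mouse counts of the 8 late libraries were fitted with edgeR 4.0.16 (quasi-likelihood test, TMM scaling, filterByExpr with a minimum count of 10, limma 3.58.1, R 4.3.3). The model had a block for each pair of day and replicate number, plus genotype, and 13218 genes passed the filter. Pairing rests on the data: deviations of same-numbered libraries correlated at 0.677 (day 3) and 0.515 (day 7). DESeq2 1.42.0, other scalings, other filters and left-out pairs were alternatives. Of adjusted p-values in DESeq2, those not given were left out. Interactions with day or replicate number and a fit of 16 libraries tested differences of effects. Values per library were compared by exact sign-flip tests over pairs. The edgeR script was tested on simulated data.

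Gene lists and members were chosen with earlier results of these data known. Genes named with values were Elof1, Ung, Supt5, Trp53bp1, Ighm and Igha, the 12 largest rises and 12 largest falls among calls whose mean log2 CPM was 1 or more and whose 4 pairs had 1 direction, up to 4 called members per list (smallest adjusted p), and the 5 smallest p-values of each difference of effects; some genes this rule names are not reported here. Predicted genes, pseudogenes and immunoglobulin V, D and J segments were left out by name, and this name filter also took the constant gene Ighd out of the largest rises. Other list members, among them Ighd, Igkc, Ighg2b, Ighg2c and Ciita, were named after their values were seen. Promoter sequences are from RefSeq (GRCm38.p6), and motifs were searched on both strands. Python 3.11.15 with NumPy 2.4.6, pandas 2.3.3 and matplotlib 3.10.9 was used for tables and plots.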

Additional observations from a re-analysis of the deposited data

Results flagged for a closer look

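In 230 groups of 4 libraries, 7 had a highest or lowest library that stood apart by Dixon's criterion, where chance gives about 1 in 20. Supt5 was at 228.1 CPM in Vector day 7 replicate 1, against 198 to 202 CPM in the other Vector libraries. Ighg1 was at 1.49 CPM in ELOF1 day 7 replicate 2 (3.45 to 3.86 CPM in the others), and Arhgap22 at 1.04 CPM in ELOF1 day 7 replicate 1 (3.21 to 3.87 CPM). Cd79a was at 175 CPM in ELOF1 day 3 replicate 1 (183 to 184 CPM), and Chuk at 66.6 CPM in ELOF1 day 3 replicate 2 (61.9 to 62.5 CPM). Rpl18 was at 949 CPM in Vector day 7 replicate 2, against 1086 to 1115 CPM in the other Vector libraries. Fly over mouse counts, as a log2 ratio, stood at -5.12 in ELOF1 day 3 replicate 1, above the other ELOF1 libraries.

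The genotype effect differed between replicate numbers in the interaction test for 4 of the named genes. Replicate 2 minus replicate 1 came to 2.69 for Pappa2 (adjusted p = 1.42e-07), 2.08 for Serpinf1 (adjusted p = 4.57e-05), 2.22 for Elof1 and 1.15 for Ighm on the log2 scale. This test was added after the data had been seen.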

How the results depend on the processing

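The 1146 calls became 8 with no replicate block, 3574 with fly scaling, 717 by DESeq2, 543 with all 16 libraries in the fit, 484 at day 3 alone and 154 at day 7 alone. They became 498 without day 3 replicate 1, 572 without day 3 replicate 2, 818 without day 7 replicate 1 and 919 without day 7 replicate 2, with fewer samples in each. With RLE size factors there were 1149, with robust dispersions 1279 and with no filter 1594. Among fits added after the data had been seen, the summed days gave 526, the pairs numbered 1 alone 1136 and the pairs numbered 2 alone 731. The day 7 minus day 3 difference had 9 calls with no filter and 1 by DESeq2, and the late minus day 1.5 difference 76 with no filter, 3 by DESeq2 and 1 with fly scaling; the cause was not tested.

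Of 101 called genes named by the rule, none changed direction in any of these fits, 67 stayed called without each pair in turn, and 66 did so with the days summed too. Of these, 49 also kept the call with fly scaling, while 96 of the 101 lost it with no replicate block. Most of these fits reuse the libraries in which the genes were called, so a kept direction was largely fixed in advance. Reversals fell on genes that were not called. Supt5 was at -0.15 with fly scaling, ran from -0.012 to 0.036 with 1 pair left out (below 0 without day 3 replicate 1, at -0.0027, and without day 7 replicate 1) and was at -0.040 in the pairs numbered 2. Trp53bp1 was at -0.085 with fly scaling and Ung at 0.0023 in the pairs numbered 1. The values per library kept their direction when a pair was left out: the Igha to Ighm ratio ran from -1.84 to -1.11, the fly to mouse ratio from 0.111 to 0.148 and the difference of long and short genes from -0.142 to -0.071. With 2 libraries a group and day, depth limits the scarce genes most, such as Lmo7 and Gpr161 at a few CPM.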
